A study of Gallus gallus with 9 samples.

Results

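Cells hold on to their neighbours and to the surrounding matrix through a limited set of membrane proteins and the proteins that anchor these to the cytoskeleton. The genes described here are the cadherins, protocadherins, catenins, desmosomal genes, integrin subunits, claudins and tight junction scaffolds, together with JAM, ESAM, EPCAM, NCAM, vinculin and talin genes. They were chosen by gene symbol alone. No measured value entered the rule, although earlier results of these data were known when it was set. Of the 24881 Ensembl genes in the tables, 83 carried such a symbol. The 83 comprised 20 tight junction genes, 18 cadherins, 10 protocadherins, 10 integrin alpha subunits, 6 integrin beta subunits, 6 desmosomal genes, 5 catenins including plakoglobin, 6 JAM, ESAM, EPCAM and NCAM genes, and vinculin with talin 1. Other family members, such as ITGA5, ITGB3 and OCLN, were not analysed here.

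RNA-seq was done on chicken (Gallus gallus) myoblasts taken from embryonic skeletal muscle, at passage 1, in 3 groups of 3 samples. PM cells were collected directly after serial plating, a step that separates myoblasts from faster-attaching cells. GM cells were grown in RPMI-1640 with 15% fetal bovine serum, and DM cells were kept for 4 days in RPMI-1640 with 2% horse serum and are labelled as myotubes. The media held 2% penicillin and streptomycin. The labels describe no genetic change and do not say whether the 3 samples of a group came from separate embryos or cultures, so the p-values below measure only the spread between these samples, which may be technical. The cultures are primary, and the labels name no sort or gate beyond the plating.

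In skeletal muscle, cadherins bind cadherins on the next cell through calcium, and their tails hold beta-catenin or plakoglobin, which alpha-catenin joins to actin. Integrins are pairs of an alpha and a beta chain that bind laminin, collagen, fibronectin or other matrix proteins, and talin and vinculin tie them to actin. Myoblasts need such contacts to align and fuse, and mature fibres need laminin-binding integrins to stay attached to the basement membrane. Desmosomes and tight junctions are structures of epithelia, heart and endothelium, although several of their scaffold proteins are made in many cell types.

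The tables gave 16052542 to 27546527 reads per library, and the members took 0.755% to 1.02% of the reads on Ensembl genes. The read floor of 3 reads corresponded to 0.111 to 0.191 CPM (reads scaled to library size). PM tables listed 25950 features against 26591 in the GM and DM tables, so any difference in how they were made cannot be told apart from the PM group. GM replicate 3 stood apart from the other GM libraries (chi-square per gene 52.3 and 63.0 against them, and 6.10 to 18.5 for the other replicate pairs), and values without it are given beside several members below. Longer genes were shifted towards GM and DM: the median log2 fold change of GM over PM was 0.52 in the longest of 8 length bins and -0.49 in the shortest, and 0.44 and -0.30 for DM over PM. The tested members were long, with a median of 3474 bp against 1838 bp for all tested genes, so counts are also given after removal of this trend. Levels are in FPKM, reads scaled by gene length and library size as the authors computed them, and fold changes are from edgeR on the read counts, with ± giving the standard error of a fold change, or the SD of 3 libraries after a mean level, and calls made at an adjusted p below 0.05. The FPKM ratios exceeded the edgeR fold changes by a median of 0.15 on the log2 scale for GM over PM and 0.09 for DM over PM, with -0.06 for DM over GM.

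Marker lists chosen with earlier results known gave the following summed FPKM over genes other than the members. Skeletal muscle genes (12 in the tables) summed to 1515 to 1612 in PM and 2937 to 5817 in GM, with the highest value in GM replicate 3. In DM, the samples labelled as myotubes, this sum was 1819 to 1874, below that of GM. Single genes differed: of the 12, 1 was called higher and 5 lower in DM than in GM, beside 30.8% and 30.3% of all tested genes. DES averaged 811 FPKM in GM and 142 in DM. MYOG overlapped, with 287, 287 and 526 FPKM in the GM libraries and 298, 328 and 274 in the DM libraries. Macrophage and leukocyte genes (15) summed to 1108 to 1163 in PM, 153 to 348 in GM and 314 to 354 in DM. Fibroblast genes (14) summed to 2533 to 2628 in PM, 1343 to 2201 in GM and 4656 to 5342 in DM, and smooth muscle genes (9) to 1735 to 1814, 497 to 611 and 3169 to 3742 in the same order. Epithelial genes (7) summed to 7.36 to 8.73, 17.7 to 37.1 and 8.41 to 9.50, with KRT5 and ESRP1 at or below 0.101 FPKM in every library, and endothelial genes (9) to 7.74 to 8.47, 12.1 to 14.7 and 13.3 to 14.9. Neural genes (11) summed to 12.9 to 15.7, 16.6 to 26.0 and 10.9 to 11.9, tendon and cartilage genes (8) to 21.9 to 25.4, 8.62 to 11.6 and 47.4 to 50.1, and erythroid genes (7) to 8.79 to 9.63, 26.5 to 82.4 and 5.95 to 6.11. In bulk RNA, fewer cells of a type and less RNA per cell cannot be told apart.

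Of the 83 members, 65 had enough reads to test and 18 did not. More members were higher than lower in GM: 41 of 65 were called between GM and PM (63.1%), where 66.1% of all 14796 tested genes were called. The called members were 33 higher and 8 lower in GM, against 32.0% higher and 34.1% lower among all tested genes. At 2-fold or more there were 21 higher and 4 lower, beside 14.6% and 11.9% of all tested genes. The median log2 fold change of the 65 was 0.40, against -0.01 over all tested genes. With the length trend removed the split was 29 higher and 15 lower (65.9% of the called members higher, against 80.5% without this step), while all tested genes went to 5047 higher and 4509 lower, against 4732 and 5045 without it.

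Between DM and GM, 44 of 65 members were called (67.7%), beside 61.1% of all tested genes. They were 18 higher and 26 lower in DM (27.7% and 40.0% of the 65), beside 30.8% and 30.3% of all tested genes. At least 2-fold changes numbered 11 higher and 13 lower, beside 12.7% and 11.1%. The median log2 fold change was -0.20, against -0.00 over all tested genes, and without GM replicate 3 it was -0.09, against 0.01. The split after removal of the length trend was 19 higher and 25 lower, beside 4371 and 4765 of all tested genes (4560 and 4478 without this step). Between DM and PM, 39 of 65 were called (60.0%), beside 66.2% of all tested genes. Of these, 27 were higher and 12 lower in DM, beside 33.5% and 32.7%, with 14 and 5 at 2-fold or more, beside 15.9% and 12.1%. The median log2 fold change was 0.26, against 0.02 over all tested genes, and without the length trend 21 were higher and 16 lower (56.8% higher, against 69.2%), beside 5081 and 4566 of all tested genes.

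Across the 3 stages the members followed several courses. 18 were higher in GM than in PM and lower in DM than in GM, among them CDH1, CDH2, PKP2, ITGA7, ITGB4, TJP1, NCAM1 and VCL. 6 were higher at both steps (CDH4, CDH7, ITGA1, ITGA4, ITGA9 and TLN1), and 4 were lower in GM than in PM and higher in DM than in GM (CLDN5, ITGA8, ITGA11 and ITGB5). ITGA3 was lower at both steps. 8 were higher in DM than in GM without a call between GM and PM, including CDH6, CDH11 and ITGB1, and 7 were lower in DM than in GM without a call between GM and PM, including CDH13, ITGA6 and JUP. 9 of the 65 were called at neither step, among them CDH15, CTNNA1, CLDN12 and ESAM. The 2 steps share the GM libraries, and the courses were not counted over all tested genes. The counts are therefore a description and do not show a trait particular to the members. The DM over GM calls of TLN1 and ITGA8 were lost under 7 and 9 of 17 alternative settings, among them without GM replicate 3 (log2 fold changes 0.15, edgeR adjusted p = 0.0600, and 0.37, edgeR adjusted p = 0.101). The GM over PM call of CDH7 was lost without PM replicate 1, without PM replicate 2 and without GM replicate 2. With the length trend removed, the GM over PM log2 fold change of TLN1 turned to -0.86.

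**Figure D1:**
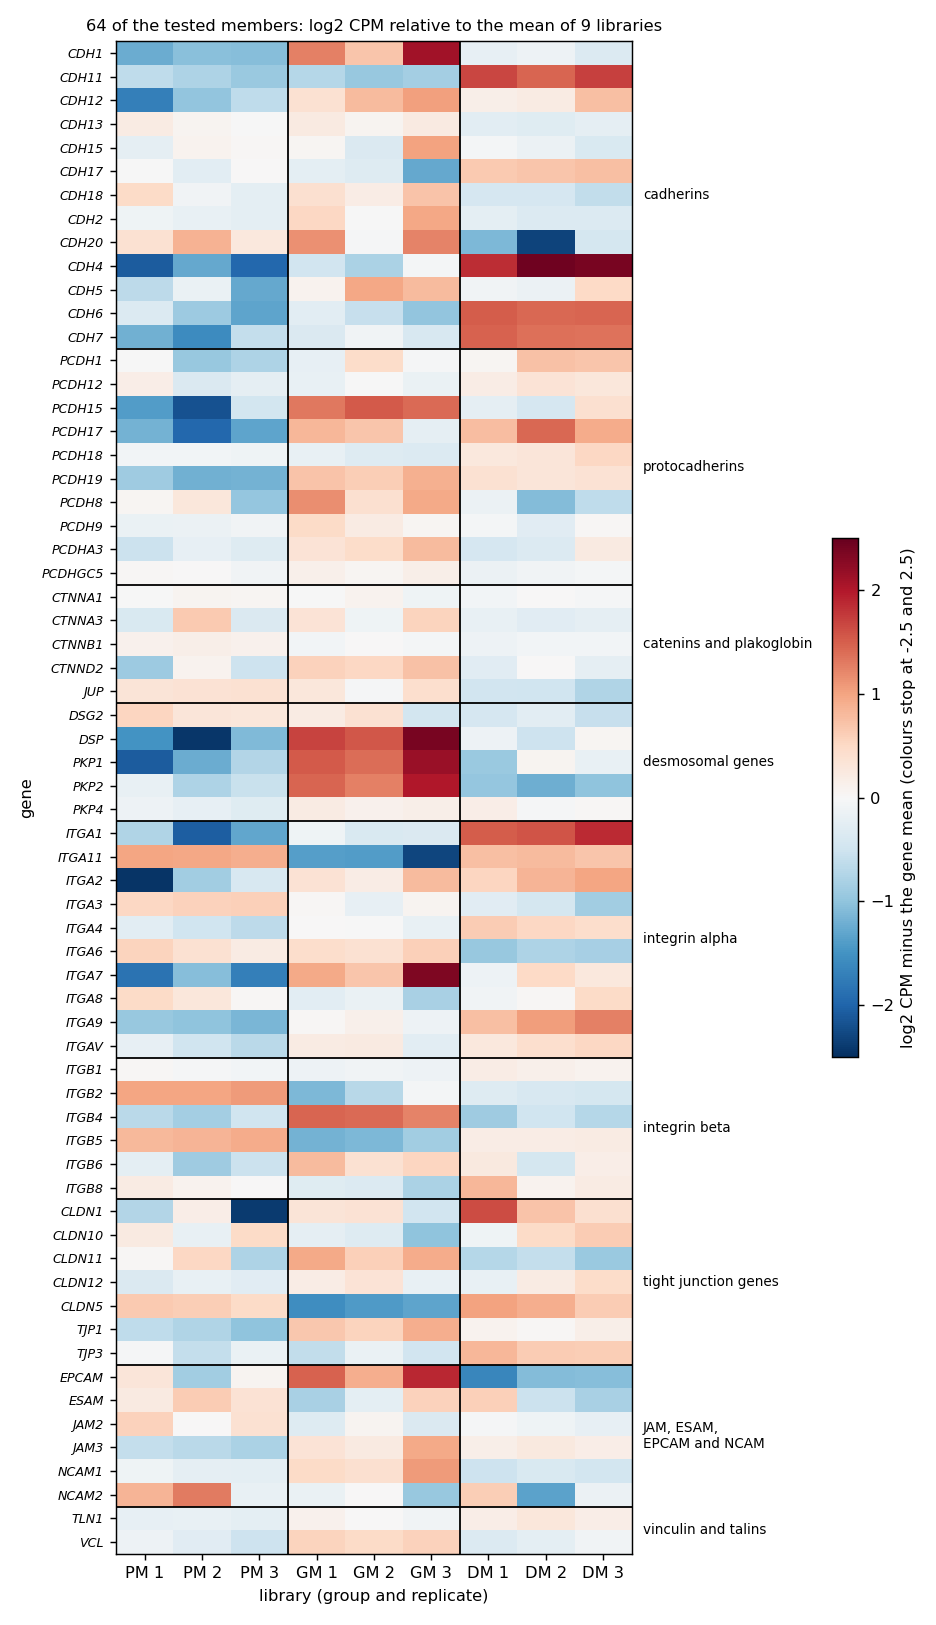
Colour map of 64 of the 65 tested members (rows, by role) in the 9 libraries (columns, PM, GM and DM with replicates 1 to 3); colour is log2 CPM minus the mean of the 9 libraries for that gene. CDH4, CDH6, CDH7 and CDH11 are red in the 3 DM libraries, DSP, PKP1, PKP2 and ITGB4 are red in the 3 GM libraries, and ITGA11, ITGB5 and CLDN5 are blue there.

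Classical cadherins mediate adherens junctions, and the type II cadherins (CDH6, CDH7, CDH11 and others) mark particular mesenchymal and neural populations. Of 13 tested cadherins, 6 were higher and 0 lower in GM than in PM, 5 were higher and 5 lower in DM than in GM, and 7 were higher and 2 lower in DM than in PM. For these counts and those of the families below, the shares of all tested genes were 32.0% higher and 34.1% lower for GM over PM. They were 30.8% and 30.3% for DM over GM, and 33.5% and 32.7% for DM over PM. The highest level of any cadherin in DM was that of CDH11, the cadherin of mesenchymal and osteoblast-lineage cells (chromosome 11, 12275000 to 12354154, + strand, in the coordinates of the tables, whose build is not given in the sources used here). CDH11 had 51.7, 46.4 and 41.3 FPKM in the PM libraries, 53.3, 46.5 and 47.4 in the GM libraries and 263, 233 and 279.7 in the DM libraries. The DM libraries all lay far above the other 6, while PM and GM overlapped. CDH11 was 5.48-fold higher in DM than in GM (log2 fold change 2.45 ± 0.10, edgeR adjusted p = 9.66e-09). CDH11 in DM was 5.23-fold higher than in PM (log2 fold change 2.39 ± 0.10, edgeR adjusted p = 1.09e-08). Between GM and PM its log2 fold change was -0.07 ± 0.10 (edgeR adjusted p = 0.557), a comparison that was called with the length trend removed. The summed levels of fibroblast and of smooth muscle markers were also highest in DM, although single markers such as POSTN (mean 363 FPKM in PM, 232 in GM and 68.6 in DM) were not, and their part in the CDH11 result was not tested.

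Type II cadherins CDH6 and CDH7 and the classical CDH4 (R-cadherin, first described in retina) had the same direction in DM at lower levels. CDH4 (chromosome 20, 7546069 to 7840288, + strand) had 0.117, 0.226 and 0.126 FPKM in the PM libraries, 0.46, 0.375 and 0.616 in the GM libraries and 2.31, 3.58 and 3.46 in the DM libraries, so the groups did not overlap at any step. CDH4 was 2.82-fold higher in GM than in PM (log2 fold change 1.49 ± 0.36, edgeR adjusted p = 0.00344). CDH4 in DM was 6.6-fold higher than in GM (log2 fold change 2.72 ± 0.26, edgeR adjusted p = 5.15e-06). CDH6 had 1.12, 0.738 and 0.534 FPKM in the PM libraries, 1.29, 1.06 and 0.745 in the GM libraries and 4.24, 4.14 and 4.19 in the DM libraries. CDH7 had 0.276, 0.204 and 0.422 FPKM in the PM libraries, 0.567, 0.705 and 0.531 in the GM libraries and 1.97, 1.89 and 1.88 in the DM libraries. For both genes each DM library exceeded each GM and PM library. CDH6 was 4.24-fold higher in DM than in GM (log2 fold change 2.08 ± 0.24, edgeR adjusted p = 1.71e-05). CDH7 was 3.31-fold higher in DM than in GM (log2 fold change 1.73 ± 0.22, edgeR adjusted p = 4.91e-05). CDH17, the liver-intestine cadherin, had 1.08 ± 0.114 FPKM in PM, 0.861 ± 0.324 FPKM in GM and 1.99 ± 0.101 FPKM in DM (SD, n = 3 each) and was 2.42-fold higher in DM than in GM (log2 fold change 1.27 ± 0.25, edgeR adjusted p = 0.00088). An unnamed gene on the opposite strand overlaps CDH17 and had a log2 fold change of 1.01 for DM over GM (edgeR adjusted p = 0.00176), and since no source used here says that reads were counted by strand, their reads cannot be told apart.

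CDH1, the epithelial cadherin, was low in PM and highest in GM. It had 4.81, 5.43 and 5.3 FPKM in the PM libraries, 30.1, 20.7 and 52 in the GM libraries and 10.2, 11.1 and 9.55 in the DM libraries, with no overlap between groups and with GM replicate 3 far above the other GM libraries. CDH1 was 6.01-fold higher in GM than in PM (log2 fold change 2.59 ± 0.32, edgeR adjusted p = 0.00013). CDH1 in DM was 3.22-fold lower than in GM (log2 fold change -1.69 ± 0.30, edgeR adjusted p = 0.00136); without GM replicate 3 the log2 fold changes were 2.13 and -1.23. The call between DM and PM (0.90 ± 0.32, edgeR adjusted p = 0.0334) was lost under 8 of 17 alternative settings. The summed level of epithelial markers other than the members was highest in GM as well, although SFN was not (mean 0.984 FPKM in PM, 0.904 in GM and 1.08 in DM), and their part was not tested. A gene on the opposite strand overlaps CDH1 and held 5420 reads over the 9 libraries against 10591 for CDH1, with a log2 fold change of 0.71 for GM over PM and 0.20 for DM over GM.

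N-cadherin (CDH2) and M-cadherin (CDH15) are the cadherins classically described on myoblasts. CDH2 had 99.2, 92.4 and 87.5 FPKM in the PM libraries, 167, 118 and 222 in the GM libraries and 93.4, 89 and 89 in the DM libraries, so that every GM library lay above the rest. It was 1.65-fold higher in GM than in PM (log2 fold change 0.72 ± 0.20, edgeR adjusted p = 0.00904). CDH2 in DM was 1.81-fold lower than in GM (log2 fold change -0.85 ± 0.20, edgeR adjusted p = 0.00419). CDH15 had 110.3, 135 and 128 FPKM in the PM libraries, 147, 113 and 275 in the GM libraries and 128, 124 and 105 in the DM libraries. GM replicate 3 was high and GM replicate 2 lay within the range of the other groups. CDH15 was called in no comparison in the fit of all 9 libraries, with log2 fold changes of 0.38 ± 0.31 (edgeR adjusted p = 0.304) for GM over PM and -0.54 ± 0.31 (edgeR adjusted p = 0.166) for DM over GM. Without GM replicate 3 these were -0.10 and -0.05, and without GM replicate 2 the DM over GM value was called at -0.79 (edgeR adjusted p = 0.0241). Summed skeletal muscle markers were also highest in GM replicate 3.

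CDH13, the cadherin held by a lipid anchor without a cytoplasmic tail, had 136, 124 and 115 FPKM in the PM libraries, 152, 139.5 and 148 in the GM libraries and 103, 102 and 108 in the DM libraries. DM libraries were the lowest, and CDH13 was 1.35-fold lower in DM than in GM (log2 fold change -0.44 ± 0.07, edgeR adjusted p = 0.000375). CDH13 in DM was 1.27-fold lower than in PM (log2 fold change -0.35 ± 0.07, edgeR adjusted p = 0.00152). Its GM over PM value was 0.09 ± 0.07 (edgeR adjusted p = 0.322), which turned to -0.17 (edgeR adjusted p = 0.0471) with the length trend removed. The endothelial cadherin CDH5 was at or below 0.419 FPKM in every library and was 2.72-fold higher in GM than in PM (log2 fold change 1.44 ± 0.40, edgeR adjusted p = 0.00796), with 8, 12 and 6 reads in the PM libraries, 24, 44 and 44 in the GM libraries and 19, 18 and 28 in the DM libraries. Summed endothelial markers were higher in GM and DM than in PM too. Of 8 tested, 5 were higher and 1 lower in GM than in PM, but 2 were higher and 2 lower in DM than in PM. Their median log2 fold change for DM over PM was -0.87. LYVE1 (mean 0.753 FPKM in PM and 6.61 in DM) and EGFL7 (2.89 and 5.89) were the 2 higher. The part of these markers was not tested. CDH12 (0.114 ± 0.0488 FPKM in PM, 0.522 ± 0.115 FPKM in GM and 0.385 ± 0.105 FPKM in DM), CDH18 (0.52 ± 0.161 FPKM in PM, 0.747 ± 0.13 FPKM in GM and 0.362 ± 0.026 FPKM in DM) and CDH20 (0.37 ± 0.0971 FPKM in PM, 0.533 ± 0.229 FPKM in GM and 0.099 ± 0.0819 FPKM in DM), all neural type II cadherins, stayed under 1 FPKM. CDH12 was 3.98-fold higher in GM than in PM (log2 fold change 1.99 ± 0.39, edgeR adjusted p = 0.000798). CDH18 was 1.99-fold lower in DM than in GM (log2 fold change -0.99 ± 0.27, edgeR adjusted p = 0.00831). CDH20 was 5.18-fold lower in DM than in GM (log2 fold change -2.37 ± 0.57, edgeR adjusted p = 0.00351), with a log2 fold change of -3.11 without DM replicate 3. These 3 genes thus had their highest mean in GM. Among the cadherins too low to test, CDH22 had 0 reads over the PM libraries, 15 over GM and 3 over DM. Its GM reads, scaled to library size, were 3.55-fold the 3-read floor over the PM group (95% exact lower limit of the GM over PM ratio 2.55, counting error only). CDH10 had 0 reads over the PM libraries, 2 over GM and 15 over DM, and its DM over GM ratio was 8.28 (95% exact interval 1.92 to 74.6, counting error only). CDH8, CDH9 and CDH19 had 13, 8 and 10 reads over all libraries and are not compared.

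**Figure D2:**
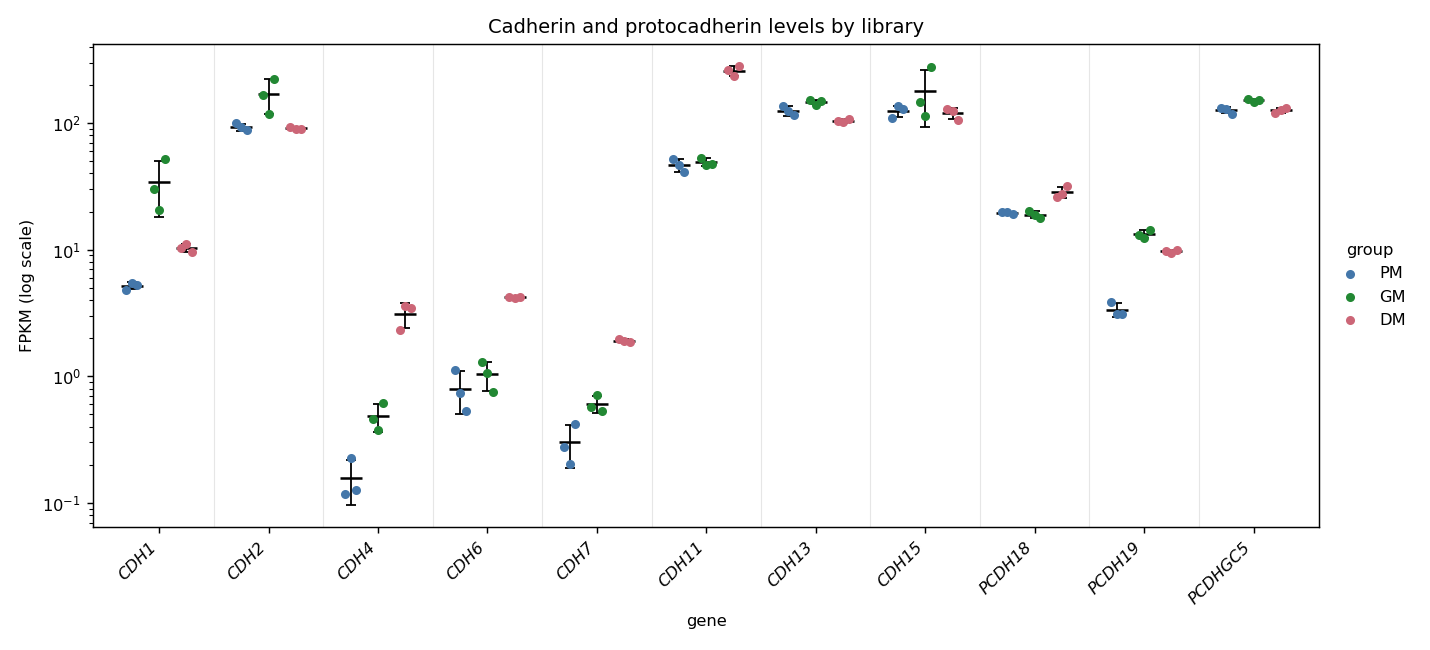
FPKM on a log axis for 11 cadherins and protocadherins; each dot is a library, the black bar the mean and the whisker the SD of 3 libraries, in the order PM, GM, DM. CDH11, CDH4, CDH6 and CDH7 are highest in the 3 DM libraries, and CDH1 and CDH2 in the 3 GM libraries.

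Summed per library, the 18 cadherins reached 397 ± 15.2 FPKM in PM, 583 ± 155 FPKM in GM and 595 ± 20.2 FPKM in DM (SD, n = 3 each). CDH11 made up 11.7% of this sum in PM, 8.80% in GM and 43.4% in DM. In PM the order was CDH13 and CDH15, whose ranges overlapped, then CDH2 and CDH11, and in GM the ranges of CDH15, CDH2 and CDH13 overlapped. CDH11 stood above all others in DM, followed by CDH15 and CDH13, which overlapped, and by CDH2. The authors' FPKM used a length close to the listed one (within 1%) for 29 of the 62 members where it could be estimated, and 0.609 of the listed length for CDH11. With the listed lengths, an alternative added after the values were seen, CDH11 took 7.47% of the PM sum, 5.62% of the GM sum and 32.0% of the DM sum, and CDH11 was still the most abundant cadherin in DM.

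**Figure D3:**
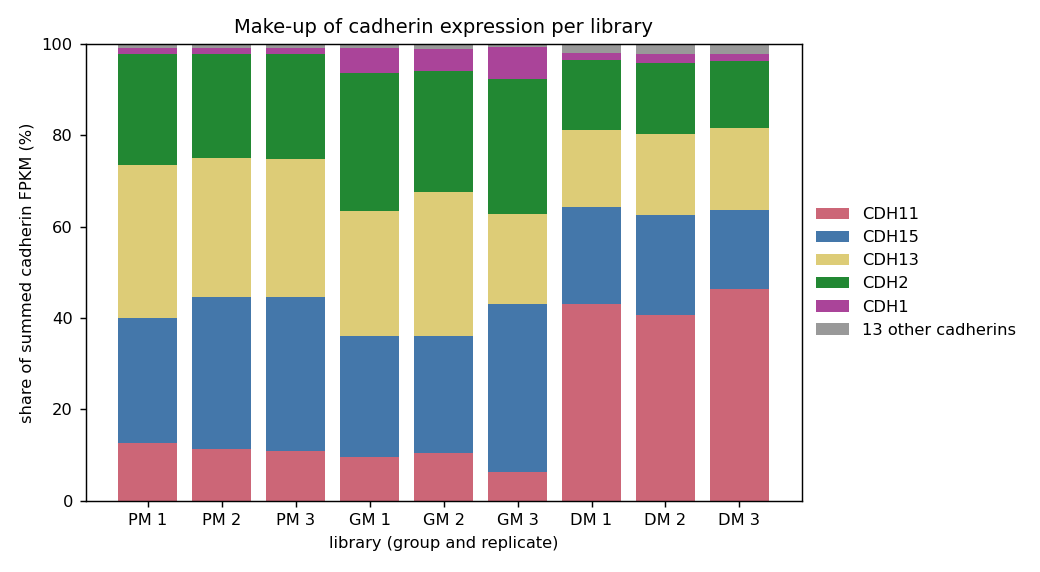
Stacked bars of the share of summed cadherin FPKM (percent) taken by CDH11, CDH15, CDH13, CDH2, CDH1 and the 13 other cadherins in each of the 9 libraries. CDH11 takes 43.4% on average in DM, against 8.80% in GM and 11.7% in PM.

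Protocadherins are relatives of the cadherins that lack the catenin-binding tail, and they act in weak or transient contacts, best known in the nervous system. Of 10 tested, 6 were higher and 0 lower in GM than in PM, 2 were higher and 5 lower in DM than in GM, and 5 were higher and 0 lower in DM than in PM. PCDH19, a delta-protocadherin, had 3.86, 3.11 and 3.11 FPKM in the PM libraries, 12.9, 12.4 and 14.3 in the GM libraries and 9.69, 9.47 and 9.9 in the DM libraries, with no overlap between the 3 groups. It was 3.57-fold higher in GM than in PM (log2 fold change 1.83 ± 0.11, edgeR adjusted p = 2.13e-07). PCDH19 in DM was 1.31-fold lower than in GM (log2 fold change -0.39 ± 0.10, edgeR adjusted p = 0.00561). PCDH19 in DM was 2.71-fold higher than in PM (log2 fold change 1.44 ± 0.11, edgeR adjusted p = 6.69e-07). The DM level thus lay between those of GM and PM. PCDH18, another delta-protocadherin, had 19.8, 19.7 and 19 FPKM in the PM libraries, 20.3, 18.8 and 17.7 in the GM libraries and 25.9, 27.5 and 31.7 in the DM libraries and was 1.56-fold higher in DM than in GM (log2 fold change 0.64 ± 0.08, edgeR adjusted p = 3.24e-05).

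PCDHGC5, of the clustered gamma protocadherins, was the most abundant with 131, 128 and 118 FPKM in the PM libraries, 154, 148 and 152 in the GM libraries and 121, 127 and 132 in the DM libraries. It made up 82.5% of summed protocadherin FPKM in PM, 79.9% in GM and 74.6% in DM. The GM libraries were the highest in FPKM, and the log2 fold change was 0.11 ± 0.06 (edgeR adjusted p = 0.132) for GM over PM and -0.20 ± 0.06 (edgeR adjusted p = 0.017) for DM over GM. This DM over GM call was lost under 2 of 17 alternative settings, and the GM over PM value was called under 2 of them. Unnamed genes on the same strand overlap PCDHGC5, as is usual for clusters whose isoforms share their last exons, so its reads are uncertain. PCDH9 (1.39 ± 0.0246 FPKM in PM, 2.03 ± 0.338 FPKM in GM and 1.53 ± 0.169 FPKM in DM) and PCDH12 (1.67 ± 0.345 FPKM in PM, 1.85 ± 0.164 FPKM in GM and 2.34 ± 0.157 FPKM in DM) had calls that were lost under 9 to 11 of 17 alternative settings. PCDH8, PCDHA3 and PCDH15 stayed at or below 1.13 FPKM in every library and were each higher in GM than in PM and lower in DM than in GM. The DM over GM call of PCDHA3 was lost under 7 of 17 settings and its GM over PM call with the length trend removed. The GM over PM call of PCDH8 was lost without PM replicate 3 (0.74, edgeR adjusted p = 0.0970) and without GM replicate 1 (0.88, edgeR adjusted p = 0.0885). PCDH15, a hair-cell tip-link protein, had 1, 0 and 4 reads in the PM libraries, 24, 27 and 28 in the GM libraries and 6, 5 and 10 in the DM libraries, and its log2 fold change of GM over PM was 3.29 ± 0.59 (edgeR adjusted p = 0.000458), or 4.75 without PM replicate 3. PCDH17 had 2 reads over the PM libraries, and the ratio was 11.4 for GM over PM (95% exact interval 2.90 to 97.8) and 17.6 for DM over PM (4.61 to 150.05), counting error only. PCDH1 was at or below 0.176 FPKM, with a log2 fold change of 1.34 ± 0.51 (edgeR adjusted p = 0.0357) for DM over PM that was lost under 9 of 17 settings.

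Beta-catenin (CTNNB1) joins cadherin tails to alpha-catenin (CTNNA1) and is also the transducer of canonical Wnt signalling; plakoglobin (JUP) is its relative in adherens junctions and desmosomes. CTNNB1 had 339.9, 344 and 329.7 FPKM in the PM libraries, 332, 358 and 323 in the GM libraries and 300.1, 318 and 319.8 in the DM libraries. CTNNA1 had 176, 184 and 178 FPKM in the PM libraries, 192, 211 and 176 in the GM libraries and 175, 189 and 186 in the DM libraries. The values of each gene lay close together in the 9 libraries. CTNNA1 was called in no comparison in the fit of all 9 libraries, with log2 fold changes of -0.05 ± 0.07 (edgeR adjusted p = 0.561) for GM over PM and -0.02 ± 0.07 (edgeR adjusted p = 0.843) for DM over GM. With the length trend removed, CTNNA1 was called for GM over PM and for DM over PM. CTNNB1 was 1.15-fold lower in DM than in PM (log2 fold change -0.20 ± 0.06, edgeR adjusted p = 0.00979), a call lost under 2 of 17 settings. Its call between GM and PM (-0.15 ± 0.06, edgeR adjusted p = 0.0401) was lost under 13 of 17 settings. JUP had 183, 185 and 185 FPKM in the PM libraries, 195, 159.97 and 209 in the GM libraries and 108, 110.1 and 92.9 in the DM libraries. PM and GM overlapped and DM lay below both. JUP was 1.75-fold lower in DM than in GM (log2 fold change -0.80 ± 0.11, edgeR adjusted p = 7.24e-05). JUP in DM was 1.9-fold lower than in PM (log2 fold change -0.92 ± 0.11, edgeR adjusted p = 2.05e-05). The neural CTNND2 and the heart and testis CTNNA3 stayed under 1 FPKM, and CTNND2 was 2.11-fold higher in GM than in PM (log2 fold change 1.08 ± 0.30, edgeR adjusted p = 0.00798).

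In desmosomes, desmogleins bridge cells, plakophilins and plakoglobin bind their tails, and desmoplakin (DSP) joins the plaque to intermediate filaments. Of 5 tested, 4 were higher and 0 lower in GM than in PM, and 0 were higher and 4 lower in DM than in GM. Among the latter, the DSG2 call (log2 fold change -0.50, edgeR adjusted p = 0.0393) was lost under 10 of 17 alternative settings. PKP2, the plakophilin of heart and simple epithelia (chromosome 1, 58878156 to 58920195, + strand), had 1.48, 0.974 and 1.11 FPKM in the PM libraries, 5.14, 4.62 and 7.35 in the GM libraries and 0.879, 0.755 and 0.882 in the DM libraries. The lowest GM library had 4.62 FPKM and the highest of the others 1.48. PKP2 was 4.36-fold higher in GM than in PM (log2 fold change 2.13 ± 0.22, edgeR adjusted p = 7.93e-06). PKP2 in DM was 6.56-fold lower than in GM (log2 fold change -2.71 ± 0.22, edgeR adjusted p = 1.61e-06). DSP and PKP1, at very low levels, had larger folds than PKP2 for GM over PM and smaller ones for DM over GM. DSP had 0.037, 0.0142 and 0.0509 FPKM in the PM libraries, 0.464, 0.425 and 0.728 in the GM libraries and 0.116, 0.0882 and 0.136 in the DM libraries. PKP1 had 0.0283, 0.0815 and 0.13 FPKM in the PM libraries, 0.867, 0.803 and 1.32 in the GM libraries and 0.116, 0.277 and 0.228 in the DM libraries. DSP was 13.7-fold higher in GM than in PM (log2 fold change 3.78 ± 0.40, edgeR adjusted p = 9.14e-06). DSP in DM was 4.59-fold lower than in GM (log2 fold change -2.20 ± 0.32, edgeR adjusted p = 0.000127). PKP1 was 10.5-fold higher in GM than in PM (log2 fold change 3.40 ± 0.48, edgeR adjusted p = 7.77e-05). PKP1 in DM was 4.63-fold lower than in GM (log2 fold change -2.21 ± 0.39, edgeR adjusted p = 0.000512), and its GM over PM log2 fold change was 3.99 without PM replicate 3. DSG2, the desmoglein of simple epithelia and heart, had 6.45, 5.44 and 5.28 FPKM in the PM libraries, 5.66, 6.53 and 3.47 in the GM libraries and 3.45, 3.95 and 3.16 in the DM libraries and was 1.73-fold lower in DM than in PM (log2 fold change -0.79 ± 0.19, edgeR adjusted p = 0.00366). PKP4, which binds at adherens junctions and desmosomes, was the most abundant of the group and had 25.9 ± 1.76 FPKM in PM, 36.9 ± 1.55 FPKM in GM and 33.3 ± 1.9 FPKM in DM. It was 1.29-fold higher in GM than in PM (log2 fold change 0.36 ± 0.08, edgeR adjusted p = 0.00126); with the length trend removed this was 0.12 (edgeR adjusted p = 0.146). ACVR1 overlaps PKP4 on the opposite strand and held 32991 reads over the 9 libraries against 15671 for PKP4. The log2 fold change of ACVR1 was -0.58 for GM over PM and 0.43 for DM over GM. PKP3, too low to test, had 5 reads over the PM libraries, 23 over GM and 1 over DM. The epithelial markers that are no members were higher in GM than in PM for 4 of 5 tested genes and lower for 0, and their part in these values was not tested.

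Integrin alpha chains set which matrix protein an integrin binds. Of 10 tested, 6 were higher and 3 lower in GM than in PM, 5 were higher and 3 lower in DM than in GM, and 6 were higher and 2 lower in DM than in PM. Among the laminin-binding chains, ITGA3 had 157, 163 and 162 FPKM in the PM libraries, 124, 107 and 123 in the GM libraries and 94, 86.8 and 64.3 in the DM libraries, and the 3 groups did not overlap. ITGA3 was 1.51-fold lower in GM than in PM (log2 fold change -0.59 ± 0.13, edgeR adjusted p = 0.00211). ITGA3 in DM was 1.39-fold lower than in GM (log2 fold change -0.48 ± 0.13, edgeR adjusted p = 0.00835). ITGA3 in DM was 2.09-fold lower than in PM (log2 fold change -1.07 ± 0.13, edgeR adjusted p = 3.40e-05). ITGA6 had 146, 128 and 112 FPKM in the PM libraries, 148, 146 and 159.8 in the GM libraries and 53.7, 62 and 59.4 in the DM libraries. The highest PM library was close to the lowest GM library, and the DM libraries were below all others. ITGA6 was 2.5-fold lower in DM than in GM (log2 fold change -1.32 ± 0.10, edgeR adjusted p = 6.05e-07). ITGA7, the laminin receptor chain of muscle fibres, had 0.761, 1.31 and 0.821 FPKM in the PM libraries, 5.95, 5.09 and 15 in the GM libraries and 2.64, 4.17 and 3.58 in the DM libraries. All GM libraries were above all others and GM replicate 3 stood far above its group. ITGA7 was 8.24-fold higher in GM than in PM (log2 fold change 3.04 ± 0.49, edgeR adjusted p = 0.000613). ITGA7 in DM was 2.44-fold lower than in GM (log2 fold change -1.29 ± 0.43, edgeR adjusted p = 0.0283), with log2 fold changes of 2.36 and -0.60 (edgeR adjusted p = 0.0206) without GM replicate 3; the DM over GM call was lost without DM replicate 1 (edgeR adjusted p = 0.0691), without DM replicate 3 (edgeR adjusted p = 0.0679) and with no low-count filter (edgeR adjusted p = 0.0733).

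The collagen-binding chains went in different directions. ITGA11, a receptor for fibrillar collagen on mesenchymal cells (chromosome 10, 19181613 to 19214397, - strand), had 54.2, 52.7 and 49.8 FPKM in the PM libraries, 11.5, 11.6 and 5.93 in the GM libraries and 47.7, 50.1 and 46.7 in the DM libraries. GM stood well below the other groups. ITGA11 was 6-fold lower in GM than in PM (log2 fold change -2.59 ± 0.21, edgeR adjusted p = 4.71e-06). ITGA11 in DM was 5.2-fold higher than in GM (log2 fold change 2.38 ± 0.20, edgeR adjusted p = 8.04e-06). Its DM over PM value was -0.21 ± 0.19 (edgeR adjusted p = 0.364), and -0.21 was called (edgeR adjusted p = 0.00526) without GM replicate 3, as was -0.20 (edgeR adjusted p = 0.00673) with those 2 groups fitted alone. ITGA1, which binds collagen and laminin, had 0.752, 0.289 and 0.499 FPKM in the PM libraries, 1.32, 1.1 and 1.06 in the GM libraries and 3.87, 4.14 and 5.09 in the DM libraries and no overlap between groups. ITGA1 was 2.05-fold higher in GM than in PM (log2 fold change 1.03 ± 0.26, edgeR adjusted p = 0.00451). ITGA1 in DM was 3.9-fold higher than in GM (log2 fold change 1.96 ± 0.23, edgeR adjusted p = 1.91e-05). PELO lies within ITGA1 on the same strand and had log2 fold changes of -1.16 for GM over PM and 0.43 for DM over GM. ITGA2, adjacent to ITGA1 on chromosome Z with a gap of 18058 bp and no listed gene between, stayed at or below 0.463 FPKM and was 4-fold higher in DM than in PM (log2 fold change 2.00 ± 0.46, edgeR adjusted p = 0.00264), with a log2 fold change of 2.63 without PM replicate 3. The summed levels of fibroblast and of smooth muscle markers were lowest in GM and highest in DM, although single markers differed. For GM over PM, 4 of 13 tested fibroblast genes were higher and 5 lower, and 3 of 9 smooth muscle genes were higher and 4 lower. For DM over GM these were 9 higher and 1 lower, and 7 higher and 1 lower. The part of these markers in the ITGA11 values was not tested.

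ITGA4 and ITGA9, a related pair that binds VCAM1, fibronectin and osteopontin, were higher at each stage. ITGA4 had 21.2, 17.8 and 15.7 FPKM in the PM libraries, 27.8, 28.2 and 23.7 in the GM libraries and 40.7, 38.5 and 36.6 in the DM libraries. ITGA9 had 2.5, 2.38 and 2.12 FPKM in the PM libraries, 5.43, 5.92 and 4.74 in the GM libraries and 8.41, 10.7 and 12.3 in the DM libraries. Neither gene had overlapping groups. ITGA4 was 1.32-fold higher in GM than in PM (log2 fold change 0.40 ± 0.10, edgeR adjusted p = 0.00489). ITGA4 in DM was 1.51-fold higher than in GM (log2 fold change 0.60 ± 0.10, edgeR adjusted p = 0.000341), and ITGA9 was 2.07-fold higher in GM than in PM (log2 fold change 1.05 ± 0.14, edgeR adjusted p = 4.54e-05). ITGA9 in DM was 2.03-fold higher than in GM (log2 fold change 1.02 ± 0.13, edgeR adjusted p = 4.02e-05). ITGAV, the vitronectin receptor chain, had 72, 57.6 and 50.3 FPKM in the PM libraries, 105, 108 and 73.6 in the GM libraries and 102, 117 and 126 in the DM libraries. GM replicate 3 was near the highest PM library. ITGAV was 1.43-fold higher in GM than in PM (log2 fold change 0.52 ± 0.15, edgeR adjusted p = 0.0109). ITGAV in DM was 1.8-fold higher than in PM (log2 fold change 0.85 ± 0.15, edgeR adjusted p = 0.000595). Between DM and GM its log2 fold change was 0.33 ± 0.15 (edgeR adjusted p = 0.0801), a comparison that was called with the length trend removed. ITGA8, a fibronectin and nephronectin receptor chain, had 27.6, 23.7 and 19.7 FPKM in the PM libraries, 18.1, 19.7 and 12 in the GM libraries and 19.1, 21.4 and 29.1 in the DM libraries and was 1.58-fold lower in GM than in PM (log2 fold change -0.66 ± 0.20, edgeR adjusted p = 0.0152). Its call between DM and GM (0.54 ± 0.20, edgeR adjusted p = 0.0389) was lost as given above. Its GM over PM call was lost without PM replicate 1 (-0.54, edgeR adjusted p = 0.0631).

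The 10 alpha chains summed to 448 ± 34.3 FPKM in PM, 434 ± 14.4 FPKM in GM and 384 ± 11.4 FPKM in DM, while the shares of single chains differed. ITGAV took 13.3% in PM, 21.9% in GM and 29.9% in DM. ITGA3 took 36.1%, 27.3% and 21.3% in the same order, ITGA6 28.7%, 35.0% and 15.2%, and ITGA11 11.7%, 2.22% and 12.6%. The order of levels was ITGA3, ITGA6, then ITGAV and ITGA11 with overlapping ranges in PM; ITGA6, then ITGA3 and ITGAV with overlapping ranges in GM; and ITGAV, ITGA3, ITGA6, ITGA11 and ITGA4 without overlap in DM. With listed lengths ITGA3 took 27.5% of the PM sum, 20.3% of the GM sum and 15.5% of the DM sum, below that of ITGA6 (32.5%, 38.6% and 16.4%) in each group.

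**Figure D4:**
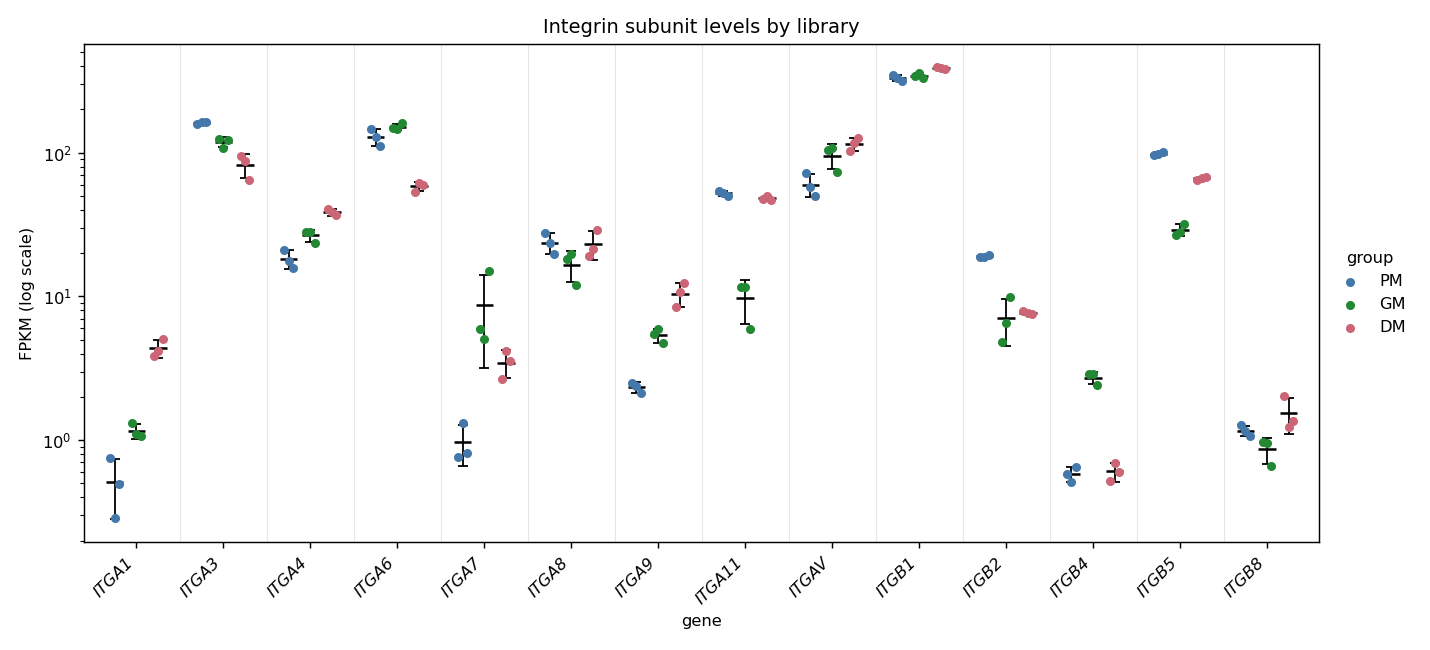
FPKM on a log axis for 14 integrin chains; each dot is a library, the black bar the mean and the whisker the SD of 3 libraries, in the order PM, GM, DM. ITGB1 is the highest chain in every group, ITGA11 and ITGB5 are lowest in GM, and ITGA1 and ITGA9 are higher at each stage.

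Among the beta chains, ITGB1 pairs with most of the alpha chains above, ITGB5, ITGB6 and ITGB8 pair with ITGAV, ITGB4 pairs with ITGA6, and ITGB2 is the chain of leukocytes. Of 6 tested, 2 were higher and 2 lower in GM than in PM, 3 were higher and 1 lower in DM than in GM, and 1 was higher and 2 lower in DM than in PM. ITGB1 had 346, 329 and 317 FPKM in the PM libraries, 339, 358 and 331 in the GM libraries and 396, 390.4 and 383 in the DM libraries. The 3 groups lay close together, with DM highest. ITGB1 was 1.18-fold higher in DM than in GM (log2 fold change 0.24 ± 0.06, edgeR adjusted p = 0.00449). Its GM over PM value was -0.10 ± 0.06 (edgeR adjusted p = 0.179) and was called with the length trend removed. Its call between DM and PM (0.15 ± 0.06, edgeR adjusted p = 0.0499) was lost under 11 of 17 settings. ITGB5 had 95.7, 98.3 and 101 FPKM in the PM libraries, 26.6, 28.1 and 31.9 in the GM libraries and 64.6, 66.5 and 67.4 in the DM libraries, with no overlap between groups. ITGB5 was 3.77-fold lower in GM than in PM (log2 fold change -1.91 ± 0.08, edgeR adjusted p = 3.82e-08). ITGB5 in DM was 2.38-fold higher than in GM (log2 fold change 1.25 ± 0.08, edgeR adjusted p = 3.26e-07). ITGB5 in DM was 1.59-fold lower than in PM (log2 fold change -0.66 ± 0.08, edgeR adjusted p = 2.64e-05). ITGB5 made up 21.9% of summed beta chain FPKM in PM, 7.56% in GM and 14.2% in DM, and ITGB1 made up 73.4%, 89.5% and 83.6%.

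ITGB2 had 18.8, 18.7 and 19.6 FPKM in the PM libraries, 4.82, 6.56 and 9.86 in the GM libraries and 7.87, 7.62 and 7.49 in the DM libraries. PM libraries were all above the others. ITGB2 was 2.96-fold lower in GM than in PM (log2 fold change -1.57 ± 0.22, edgeR adjusted p = 0.000135). ITGB2 in DM was 2.65-fold lower than in PM (log2 fold change -1.40 ± 0.22, edgeR adjusted p = 0.000272). The DM over GM value was 0.16 ± 0.22 (edgeR adjusted p = 0.537) and became 0.51 (edgeR adjusted p = 0.00146) without GM replicate 3. Of the 15 macrophage and leukocyte markers tested beside ITGB2, 0 were higher and 15 lower in GM than in PM, and their part in the ITGB2 result was not tested. ITGB4, the hemidesmosome chain, had 0.584, 0.511 and 0.65 FPKM in the PM libraries, 2.87, 2.87 and 2.41 in the GM libraries and 0.517, 0.699 and 0.604 in the DM libraries. Every GM library exceeded the rest by far. ITGB4 was 4.18-fold higher in GM than in PM (log2 fold change 2.06 ± 0.16, edgeR adjusted p = 1.29e-06). ITGB4 in DM was 4.3-fold lower than in GM (log2 fold change -2.10 ± 0.16, edgeR adjusted p = 8.75e-07). ITGB6 stayed at or below 0.626 FPKM and was 2.36-fold higher in GM than in PM (log2 fold change 1.24 ± 0.34, edgeR adjusted p = 0.00718), and ITGB8 had 1.16 ± 0.0982 FPKM in PM, 0.863 ± 0.175 FPKM in GM and 1.54 ± 0.432 FPKM in DM and was 1.87-fold higher in DM than in GM (log2 fold change 0.90 ± 0.24, edgeR adjusted p = 0.00599).

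Claudins form the strands that seal the space between epithelial or endothelial cells, and the scaffolds TJP1 and TJP3 (ZO proteins) hold them to actin. Of 20 members, 8 were tested. They were 3 higher and 1 lower in GM than in PM, 2 higher and 3 lower in DM than in GM, and 4 higher and 0 lower in DM than in PM. TJP1 had 15.5, 14.1 and 11.7 FPKM in the PM libraries, 42, 39.5 and 48.1 in the GM libraries and 26.5, 26.1 and 28.3 in the DM libraries. The groups did not overlap. TJP1 was 2.83-fold higher in GM than in PM (log2 fold change 1.50 ± 0.11, edgeR adjusted p = 7.44e-07). TJP1 in DM was 1.54-fold lower than in GM (log2 fold change -0.62 ± 0.11, edgeR adjusted p = 0.000379). TJP1 in DM was 1.84-fold higher than in PM (log2 fold change 0.88 ± 0.11, edgeR adjusted p = 2.71e-05). TJP3 had 1.82 ± 0.364 FPKM in PM, 1.8 ± 0.326 FPKM in GM and 3.74 ± 0.255 FPKM in DM and was 2.17-fold higher in DM than in GM (log2 fold change 1.12 ± 0.17, edgeR adjusted p = 0.000176).

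CLDN5, the claudin of endothelium (chromosome 15, 701150 to 702907, - strand), had 19.99, 19.3 and 17.5 FPKM in the PM libraries, 4.72, 5.28 and 5.41 in the GM libraries and 26.7, 25.3 and 21.1 in the DM libraries. GM libraries were the lowest by a wide margin. CLDN5 was 4.07-fold lower in GM than in PM (log2 fold change -2.03 ± 0.12, edgeR adjusted p = 1.81e-07). CLDN5 in DM was 4.93-fold higher than in GM (log2 fold change 2.30 ± 0.12, edgeR adjusted p = 4.46e-08). Its value between DM and PM was 0.28 ± 0.11 (edgeR adjusted p = 0.0431), which was lost under 6 of 17 settings. Summed endothelial markers other than the members were lowest in PM, and among 8 tested, 5 were higher and 1 lower in GM than in PM. For DM over GM, 2 of the 8 were higher and 5 lower, beside 30.8% and 30.3% of all tested genes, with a median log2 fold change of -2.23. EGFL7, 1 of these markers, had its lowest mean in GM (2.89 FPKM in PM, 2.04 in GM and 5.89 in DM). FLT1, another, had its highest mean in GM (2.83 FPKM in PM, 4.94 in GM and 1.24 in DM). The part of these markers in the CLDN5 values was not tested. CLDN12 had 5.82, 6.5 and 6.01 FPKM in the PM libraries, 9.37, 10.6 and 7.03 in the GM libraries and 6.8, 9.24 and 11.1 in the DM libraries and was called in no comparison in the fit of all 9 libraries. CLDN12 was called under 5 of 17 alternative settings for GM over PM and under 6 of 17 for DM over PM. Among them was the fit without GM replicate 3 (0.54, edgeR adjusted p = 0.0221, for GM over PM and 0.47, edgeR adjusted p = 0.0278, for DM over PM). CLDN11 reached 1.02 FPKM at most and was 3.36-fold lower in DM than in GM (log2 fold change -1.75 ± 0.36, edgeR adjusted p = 0.00144). CLDN1 stayed at or below 0.531 FPKM, and its log2 fold change of 2.09 ± 0.72 (edgeR adjusted p = 0.0237) for DM over PM became 1.43 (edgeR adjusted p = 0.0689) without PM replicate 3 and 3.24 (edgeR adjusted p = 0.0102) without PM replicate 2. The call was also lost without PM replicate 1 (edgeR adjusted p = 0.0610) and without DM replicate 1 (edgeR adjusted p = 0.0979). CLDN3 stayed at or below 0.244 FPKM and was not tested. CLDN8, CLDN16, CLDN17, CLDN18 and CLDN23 had 0 reads in all 9 libraries, which allows up to 0.111 to 0.191 CPM in a library.

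JAM2 and JAM3 are immunoglobulin-type adhesion molecules that bind each other, and in zebrafish both are needed for fusion of muscle precursors. JAM3 had 112, 106 and 96.6 FPKM in the PM libraries, 238, 222 and 351 in the GM libraries and 195, 214 and 204 in the DM libraries. PM was below the other groups, and GM replicate 3 was above its group. JAM3 was 2.33-fold higher in GM than in PM (log2 fold change 1.22 ± 0.16, edgeR adjusted p = 0.000103). JAM3 in DM was 1.83-fold higher than in PM (log2 fold change 0.87 ± 0.16, edgeR adjusted p = 0.000959). The DM over GM value was -0.35 ± 0.16 (edgeR adjusted p = 0.0811) and was called under 3 of 17 alternative settings. JAM2 had 5.81, 3.83 and 4.93 FPKM in the PM libraries, 3.37, 4.56 and 3.17 in the GM libraries and 3.93, 3.79 and 3.55 in the DM libraries, and its calls of -0.54 ± 0.19 (edgeR adjusted p = 0.0232) for GM over PM and -0.46 ± 0.19 (edgeR adjusted p = 0.0485) for DM over PM were lost under 8 and 11 of 17 settings. ATP5J overlaps JAM2 by 183 bp on the opposite strand and held 23125 reads over all libraries against 1081 for JAM2. The log2 fold change of ATP5J was -0.94 for GM over PM and -0.61 for DM over PM. NCAM1, the neural cell adhesion molecule also present on embryonic muscle, had 65.3, 60.3 and 58.3 FPKM in the PM libraries, 108, 105 and 157 in the GM libraries and 51.3, 57.6 and 55 in the DM libraries. All GM libraries were above the others. NCAM1 was 1.83-fold higher in GM than in PM (log2 fold change 0.87 ± 0.15, edgeR adjusted p = 0.000457). NCAM1 in DM was 2.18-fold lower than in GM (log2 fold change -1.13 ± 0.15, edgeR adjusted p = 9.05e-05). With the length trend removed, its GM over PM value was 0.23 (edgeR adjusted p = 0.24), and without GM replicate 3 it was 0.63. NCAM2 and the endothelial ESAM stayed at or below 0.621 FPKM and were called in no comparison in the fit of all 9 libraries. NCAM2 was called for GM over PM with the length trend removed and without PM replicate 3. EPCAM, an epithelial marker, had 4, 1 and 4 reads in the PM libraries, 18, 11 and 27 in the GM libraries and 0, 1 and 1 in the DM libraries. Its log2 fold change of GM over PM was 1.96 ± 0.55 (edgeR adjusted p = 0.00821), and the ratio of DM over GM was 0.0394 (95% exact interval 0.00466 to 0.149, counting error only). The listed span of EPCAM also covers other genes.

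Talin opens integrins and binds actin, and vinculin strengthens that link and also sits at cadherin junctions. VCL had 136, 121 and 102 FPKM in the PM libraries, 239.6, 232 and 235 in the GM libraries and 121, 134 and 149 in the DM libraries. GM libraries were all above the others. VCL was 1.78-fold higher in GM than in PM (log2 fold change 0.83 ± 0.10, edgeR adjusted p = 2.34e-05). VCL in DM was 1.69-fold lower than in GM (log2 fold change -0.75 ± 0.10, edgeR adjusted p = 5.64e-05), and its DM over PM value was 0.08 ± 0.10 (edgeR adjusted p = 0.503). TLN1 had 40.5, 40.9 and 38.7 FPKM in the PM libraries, 55.3, 52.5 and 47.3 in the GM libraries and 54.1, 60.01 and 56.3 in the DM libraries and was 1.33-fold higher in DM than in PM (log2 fold change 0.41 ± 0.07, edgeR adjusted p = 0.000237). TLN1 is the longest tested member, with 11777 bp, and with the length trend removed its values turned to -0.50 for DM over PM and -0.86 for GM over PM, where the uncorrected GM over PM value was 0.22.

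**Figure D5:**
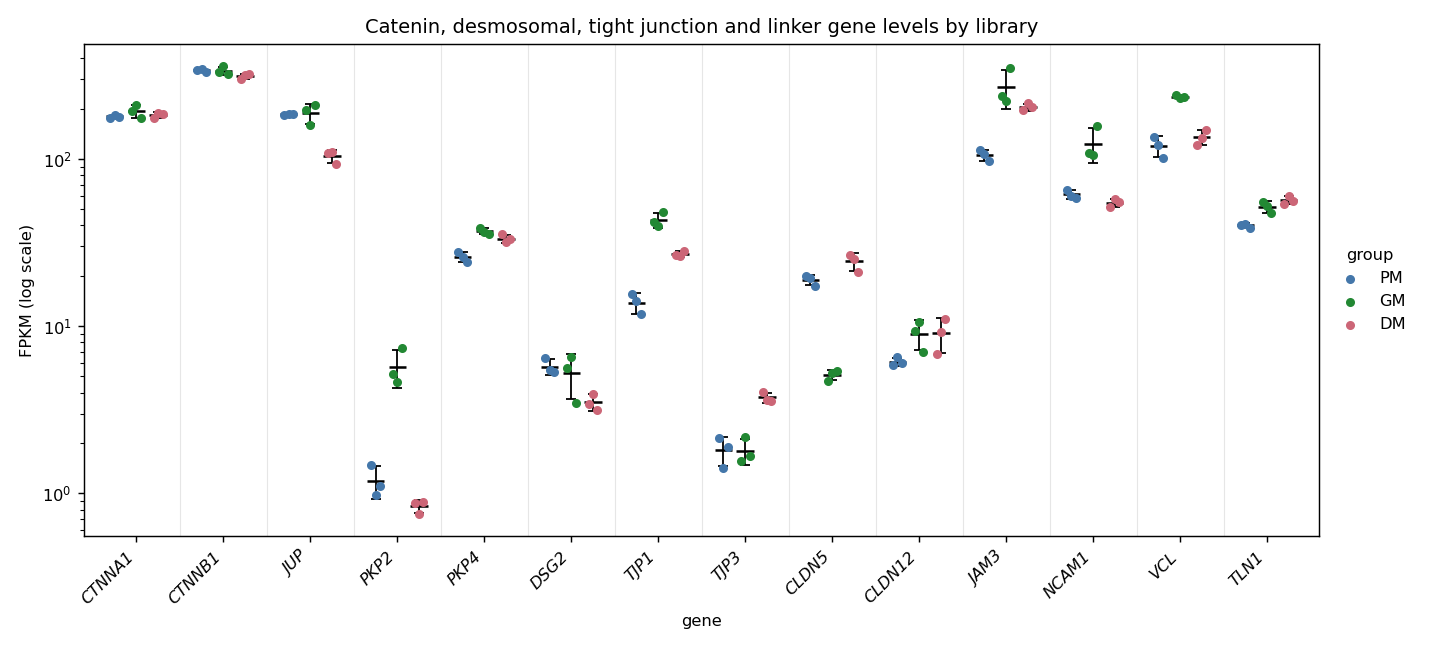
FPKM on a log axis for 14 catenin, desmosomal, tight junction, JAM, NCAM and linker genes; each dot is a library, the black bar the mean and the whisker the SD of 3 libraries, in the order PM, GM, DM. PKP2, TJP1 and VCL are highest in the 3 GM libraries, CLDN5 is lowest there, and JUP is lowest in DM.

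Partner genes of these families were read from lists chosen with earlier results of these data known. Beside the counts of each list, 32.0% of all tested genes were higher and 34.1% lower in GM than in PM. These shares were 30.8% and 30.3% for DM over GM, and 33.5% and 32.7% for DM over PM. Of 20 tested integrin-linked adaptors, 5 were higher and 6 lower in GM than in PM, 4 higher and 11 lower in DM than in GM, and 5 higher and 12 lower in DM than in PM (median log2 fold changes -0.07, -0.30 and -0.42). ILK, the integrin-linked kinase, averaged 104 ± 5.88 FPKM in DM and 196 ± 6.73 in PM, with a log2 fold change of -1.01 ± 0.08 (edgeR adjusted p = 6.33e-07). TNS3, a tensin, averaged 28.8 ± 3.49 FPKM in DM and 13.6 ± 1.63 in GM (1.14 ± 0.12, edgeR adjusted p = 7.31e-06).

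Of 11 tested genes of the wider cadherin superfamily, 6 were higher and 2 lower in GM than in PM, 6 higher and 3 lower in DM than in GM, and 5 higher and 2 lower in DM than in PM. FAT4, a giant protocadherin of planar polarity, averaged 5.07 ± 0.798 FPKM in DM and 1.29 ± 0.355 in GM (log2 fold change 2.04 ± 0.21, edgeR adjusted p = 1.93e-05). CELSR1, another planar polarity cadherin, averaged 10.5 ± 3.19 FPKM in GM and 2.26 ± 0.343 in PM (2.08 ± 0.23, edgeR adjusted p = 2.91e-05), and 2.95 ± 0.467 in DM. Of 19 tested nectins and other immunoglobulin-type molecules, 10 were higher and 4 lower in GM than in PM, 9 higher and 3 lower in DM than in GM, and 10 higher and 1 lower in DM than in PM. CDON, a co-receptor that binds N-cadherin and promotes myoblast differentiation in mouse, averaged 19.1 ± 1.28 FPKM in DM and 7.44 ± 0.401 in GM (1.42 ± 0.08, edgeR adjusted p = 9.17e-08). BSG (basigin) averaged 919.9 ± 31.1 FPKM in DM and 292 ± 59.5 in GM (1.72 ± 0.11, edgeR adjusted p = 2.66e-07).

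Gap junction genes couple cells electrically and metabolically. Of 7 tested, 2 were higher and 1 lower in GM than in PM, 1 higher and 5 lower in DM than in GM, and 2 higher and 3 lower in DM than in PM. GJA1 (connexin 43) averaged 306 ± 13.3 FPKM in DM and 65.8 ± 16.7 in GM (log2 fold change 2.28 ± 0.15, edgeR adjusted p = 4.83e-07), and 62.1 ± 1.86 in PM. Of 18 tested tight junction and polarity scaffolds, 7 were higher and 3 lower in GM than in PM, 6 higher and 4 lower in DM than in GM, and 8 higher and 2 lower in DM than in PM. MAGI1, a scaffold at junctions, averaged 17.9 ± 0.453 FPKM in DM and 4.53 ± 0.273 in GM (2.04 ± 0.12, edgeR adjusted p = 9.54e-08). Of 18 tested costamere and dystrophin complex genes, which tie the fibre's cytoskeleton to the matrix, 12 were higher and 3 lower in GM than in PM, 2 higher and 9 lower in DM than in GM, and 10 higher and 4 lower in DM than in PM. DMD (dystrophin) averaged 7.98 ± 0.888 FPKM in DM and 19.2 ± 2.73 in GM (-1.22 ± 0.12, edgeR adjusted p = 6.81e-06), and SGCD (delta-sarcoglycan) averaged 49.2 ± 14.8 FPKM in GM and 9.48 ± 2.48 in PM (2.24 ± 0.27, edgeR adjusted p = 6.50e-05).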

How the data were processed

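Per the submitters' processing notes, the authors used HISAT and HTSeq, with versions, genome build and strand setting not given in the sources used here. The deposited tables hold, per library, a read count per feature (whole numbers) and the authors' FPKM, per the file headers. Analysis here used the 24881 Ensembl genes listed in all 9 tables. The other 1069 to 1710 features held 1.58% to 2.12% of the reads and stayed out of library sizes and tests, as did 2 broken lines in each GM and DM table.

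Counts were fitted with edgeR 4.0.16 (R 4.3.3; TMM, filterByExpr, robust quasi-likelihood) over all 9 samples without a block, giving 14796 tested genes. P-values were adjusted by Benjamini-Hochberg over all of them and called below 0.05. The method was run on simulated counts in which few genes changed. That run does not test it where most genes are called, as here. FPKM gave levels, shares and spreads. Intervals are exact, at 95%, for counting error. Reads come without molecular identifiers. Alternatives were DESeq2 1.42.0, its size factors, no low-count filter, limma 3.58.1 on log2(FPKM + 1) and log2(FPKM + 0.1), a length offset (lowess span 0.3), each comparison's groups alone, a replicate block, and each sample left out. The rule for naming members took up to 4 of the largest called changes per role and comparison with at least 1 FPKM, plus fixed symbols. Other members named above, such as CDH12, PKP1 and CLDN12, met neither criterion. Per partner list, up to 3 genes with at least 5 FPKM were eligible. The members and lists were chosen with earlier results of these data known. Some genes are not reported here. Sequences were not used here.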

Additional observations from a re-analysis of the deposited data

How the results depend on the processing

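The counts of called members stayed within 1.5 times of the reported ones under all 17 alternatives. Leaving out 1 sample at a time gave 35 to 40 called members for GM against PM, 39 to 44 for DM against GM and 31 to 42 for DM against PM. Calls kept under every alternative numbered 29 of 41, 36 of 44 and 24 of 39. Same-numbered samples did not deviate together (r from -0.107 to 0.101 over the pairs), so the replicate numbers were taken as names; with the replicate block, 40, 42 and 34 members were called, and a call lost there is not a weaker effect. With the length trend removed, TLN1 turned to -0.86 for GM over PM and -0.50 for DM over PM, and CDH13 to -0.17 for GM over PM (log2); the cause was not tested. limma on log2(FPKM + 0.1) moved the median of all genes from -0.01 to 0.13 for GM over PM, and the members' median to 0.51. Members under 1 FPKM rest on few reads, and their folds are the least precise.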
